A study of Mus musculus with 8 samples.

Results

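The genes described here are 34 genes of the tricarboxylic acid (TCA) cycle and of pyruvate metabolism, chosen by gene symbol from the 20539 genes of an RNA sequencing (RNA-seq) table of mouse knee articular cartilage. All 34 were in the table, and all 34 were among the 17401 genes tested, for which the mean had to reach 10 reads. Cartilage was collected 7 days after transection of the anterior cruciate ligament (ACLT), which injures 1 knee, in mice given an antibody against GDF8 (myostatin, a secreted inhibitor of muscle growth) or a placebo antibody, both at 10 mg/kg. The question of the design was how injury and GDF8 inhibition, alone and together, change the cartilage transcriptome. Each library was made from a pool of 4 limbs, and 2 pools (A and B) were sequenced for each of 4 groups.

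The anti-GDF8 ACLT group held injured limbs of mice given the anti-GDF8 antibody REGN647, and the anti-GDF8 control group the contralateral hind limbs of those mice. The placebo ACLT group held injured limbs of mice given the placebo antibody REGN1945, and the placebo control group their contralateral limbs. The mice were 4 to 5 months old, of both sexes, and C57BL/6J or Col1-eGFP, without a statement of which line gave the cartilage. The study's methods give 8 mice per treatment for the pools, while the deposited design text gives 4. The control limbs came from the injured mice, so they are not limbs of uninjured animals, and injured and control limbs of a treatment come from shared mice. Nothing states more than pools as replicates, so a p-value here measures the spread between pools.

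The TCA cycle is the ring of mitochondrial reactions that oxidizes acetyl-CoA and feeds electrons to the respiratory chain. Pyruvate, the end product of glycolysis, enters mitochondria through a carrier and is turned into acetyl-CoA by the pyruvate dehydrogenase complex, which kinases switch off and phosphatases switch on, or into oxaloacetate by pyruvate carboxylase. In the cytosol pyruvate is interconverted with lactate. Chondrocytes live with little oxygen and rely mostly on glycolysis, whereas skeletal muscle fibers are rich in mitochondria and transcribe these genes strongly.

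Libraries held 16.4 to 28.1 M (1e+06) reads, as read from the step between low values, and levels are given as CPM, counts per 1e+06 reads. Markers of cartilage took up 0.0636% to 0.285% of the CPM, and none of the 12 was listed at 0 in both pools of a group. Markers of red blood cells took up 6.95% to 13.2%, those of neutrophils 2.15% to 3.57% and those of fibroblasts 0.333% to 4.41%. The 24 markers of skeletal muscle fibers, among them Acta1, Ckm and Myh4, took up 0.247% and 3.71% in anti-GDF8 ACLT pools A and B, 1.91% and 3.19% in anti-GDF8 control, 0.0652% and 0.033% in placebo ACLT pools, and 3.43% and 7.96% in placebo control. The tissue label is cartilage for all 8 libraries, although a treatment tag of the control samples reads quadricep. In bulk samples, fewer cells of a type and less RNA per cell cannot be told apart.

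To show the sequence at the start of these genes, promoters of 300 bases (250 before and 50 after the transcription start, RefSeq, build GRCm38.p6) were searched on both strands for TNAAGGTCA, the element of estrogen-related receptors, and for GCGCANGCG, the element of nuclear respiratory factor 1 (NRF1). Both factors are known activators of mitochondrial genes. Promoters were matched by symbol for 31 of the 34 genes, all but Me2, Idh3a and Pdp1. The estrogen-related receptor element was in the window of 0 of the 31, and in 1.28% of all 32851 promoters (1.43% of genes) searched. NRF1 letters were in the window of 4 of the 31 (Dld, Ldha, Ogdh and Sucla2), and in 6.25% of all promoters (7.03% of genes). Ldha and Sucla2 are the 2 of these whose expression passed the test after injury in placebo limbs, and their windows are printed for that reason, with the matched letters in capitals. Ldha has 2 listed starts, of which 1 held a match.
Ldha (chr7:46846832-46847131, plus strand, matches 62 bases before and 39 bases after the start): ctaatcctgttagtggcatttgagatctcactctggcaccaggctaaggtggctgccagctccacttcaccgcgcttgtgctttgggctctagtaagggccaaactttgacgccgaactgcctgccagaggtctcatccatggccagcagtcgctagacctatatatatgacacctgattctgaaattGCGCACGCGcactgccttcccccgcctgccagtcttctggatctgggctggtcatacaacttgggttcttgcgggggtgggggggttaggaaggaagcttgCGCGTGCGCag
Sucla2 (chr14:73552536-73552835, plus strand, match 16 bases before the start): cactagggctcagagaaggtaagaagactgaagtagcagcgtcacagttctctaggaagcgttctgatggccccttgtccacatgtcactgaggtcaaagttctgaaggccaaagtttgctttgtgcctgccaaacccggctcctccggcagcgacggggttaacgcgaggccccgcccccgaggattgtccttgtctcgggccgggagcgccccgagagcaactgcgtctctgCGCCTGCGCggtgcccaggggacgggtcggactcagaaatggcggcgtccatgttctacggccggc
The window holds only 250 bases before and 50 after the start, so any match in it lies near the start site. A match of letters is a description and not a site of binding, and its absence says only that the letters are not in this window.

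Injury in placebo-treated mice was accompanied by lower levels of genes in every role. Of the 34 genes, 12 fell and 0 rose in placebo ACLT limbs relative to placebo control limbs, at an adjusted p under 0.05 (limma, Benjamini-Hochberg adjustment over all genes, n = 2 pools per group). Over all genes tested, 4.03% fell and 11.6% rose. The log2 fold change was negative for 30 of the 34 and ranged from -4.28 to 0.28, with a median of -0.65 beside 0.17 over all genes. The values of both placebo ACLT pools lay below both placebo control pools for 28 of the 34, against 19.4% of all genes. Scaling matters here, because a rescale by a trimmed mean of log2 ratios moved the median of all genes to -0.05 and changed the calls over all genes to 1494 that rose and 1556 that fell, beside 2011 and 701. The median of the 34 genes relative to that of all genes was -0.81 as first scaled and -0.82 after the rescale.

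**Figure D1:**
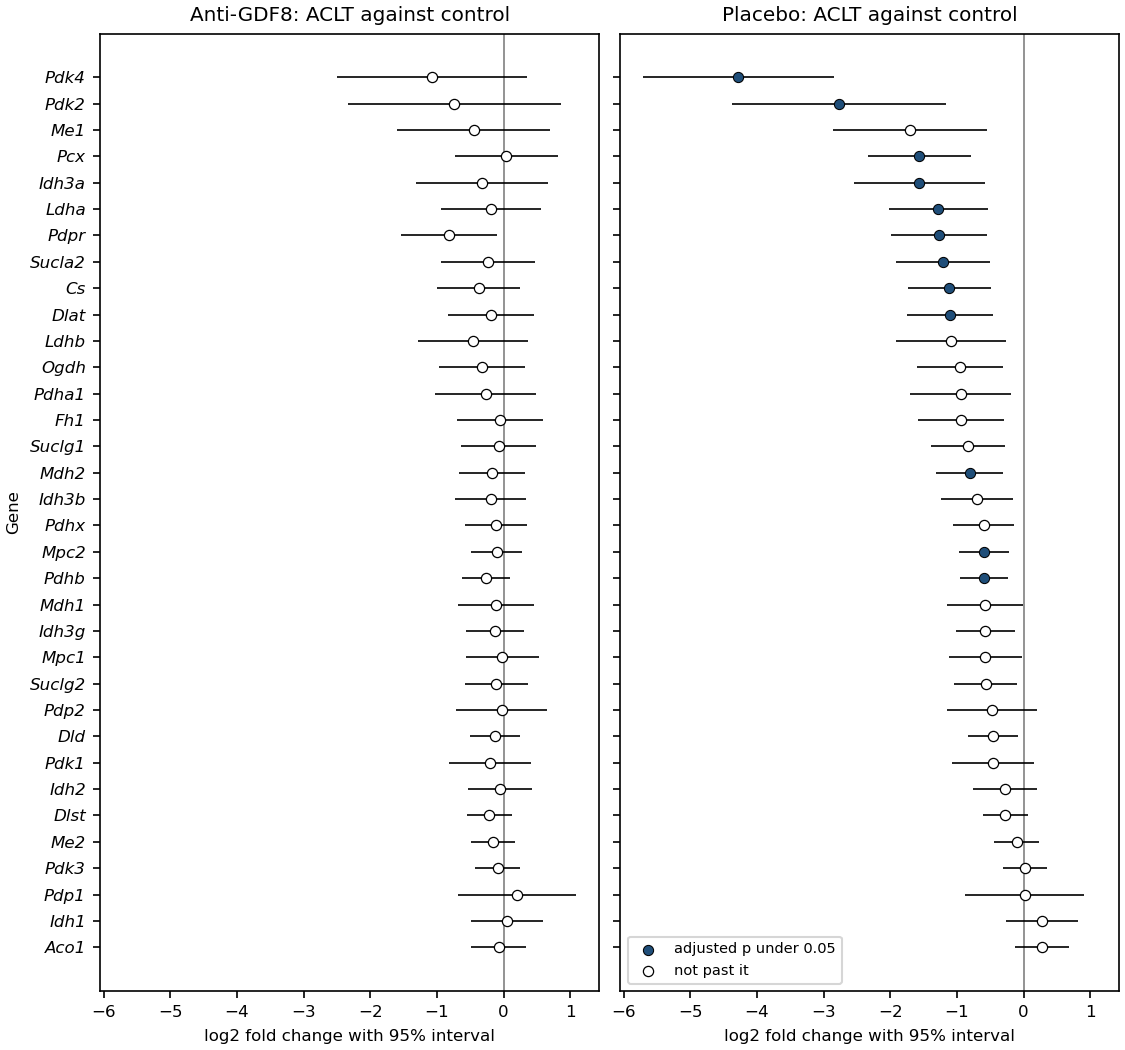
Log2 fold change of ACLT against control for each of the 34 genes (rows) under anti-GDF8 (left) and placebo (right), with 95% intervals from the limma fit of 2 pools per group. Filled points passed an adjusted p of 0.05: 12 genes under placebo, all to the left of 0, and 0 under anti-GDF8.

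The steps from citrate to oxoglutarate contributed 2 of 7 genes to the falls. Cs, citrate synthase, which opens the cycle, had 140 and 174 CPM in placebo ACLT pools A and B, against 272 and 419 CPM in placebo control. Both injured pools were below both control pools, and Cs fell by 1.11 on the log2 scale (SE 0.27, limma adjusted p = 0.0284). In the anti-GDF8 limbs Cs had 177 and 294 CPM in the ACLT pools, against 279 and 311 CPM in the control pools, which overlap.

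Idh3a, the catalytic subunit of the NAD-dependent isocitrate dehydrogenase, had 67.9 and 80.4 CPM in placebo ACLT, against 191 and 249 CPM in placebo control. It fell by 1.56 on the log2 scale (SE 0.43, limma adjusted p = 0.0429). Its level in anti-GDF8 ACLT was 71.6 CPM in pool A and 206 CPM in pool B, against 119 and 194 CPM in anti-GDF8 control, so pool A sat with the placebo ACLT pools and pool B above both control pools. The partner subunits had log2 fold changes of -0.70 (Idh3b, adjusted p = 0.0813) and -0.57 (Idh3g, adjusted p = 0.0783) in placebo limbs and did not pass the test. Mitochondrial Idh2, which makes NADPH, was at -0.28 (adjusted p = 0.409).

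Among the citrate and isocitrate steps, cytosolic Idh1 and Aco1 had positive values in placebo limbs, and neither passed the test. Cytosolic Mdh1, Ldha, Ldhb and Me1 had negative values. Idh1, the cytosolic isocitrate dehydrogenase, had 136 and 156 CPM in placebo ACLT, against 158 and 91.1 CPM in placebo control, with a log2 fold change of 0.28 (95% interval -0.26 to 0.81, limma adjusted p = 0.458). Placebo control pool B was the lowest of all 8 pools for Idh1 and the highest for muscle markers. Without placebo control pool A, pool B stood alone for its group. The log2 fold change of Idh1 was then 0.67, beside a median of 0.27 over all genes. Aco1, the cytosolic aconitase that doubles as an iron-sensing RNA-binding protein, was at 0.28 (95% interval -0.13 to 0.69).

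All 9 genes of the steps from oxoglutarate to oxaloacetate had both placebo ACLT pools below both placebo control pools, and 2 of the 9, Sucla2 and Mdh2, passed the test. Sucla2, the subunit that gives succinyl-CoA synthetase its use of ADP, had 73.6 and 80.8 CPM in placebo ACLT, against 164 and 192 CPM in placebo control. It fell by 1.20 (SE 0.31, limma adjusted p = 0.033).

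Mdh2, the mitochondrial malate dehydrogenase that closes the cycle, had 267 and 250 CPM in placebo ACLT, against 386 and 533 CPM in placebo control. Mdh2 fell by 0.81 on the log2 scale (SE 0.22, limma adjusted p = 0.0395), with no overlap of the pools. In the anti-GDF8 limbs Sucla2 had 77.3 and 159 CPM in ACLT, against 109 and 156 CPM in control, and Mdh2 had 280 and 408 CPM in ACLT, against 357 and 405 CPM in control. For both genes the anti-GDF8 ACLT pools lay on either side of the control pools.

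Several genes of these steps came close to the threshold in placebo limbs without passing it. Suclg1, the shared alpha subunit of succinyl-CoA synthetase, was at -0.84 (limma adjusted p = 0.0509), Ogdh, the first enzyme of the oxoglutarate dehydrogenase complex, at -0.96 (adjusted p = 0.0534) and Fh1, fumarase, at -0.94 (adjusted p = 0.0564). Farther from it were Suclg2, the subunit for GDP, at -0.56, cytosolic Mdh1 at -0.58, Dld at -0.45 and Dlst at -0.27, the last with an adjusted p of 0.254. Dld and Dlst are the remaining components of the oxoglutarate dehydrogenase complex, and Dld also serves pyruvate dehydrogenase.

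The subunits of the pyruvate dehydrogenase complex had all 4 genes separated between the placebo groups, and 2 of the 4 fell. Dlat, the acetyl-transferring core, had 37.1 and 49 CPM in placebo ACLT, against 77.5 and 108 CPM in placebo control, and fell by 1.10 (SE 0.28, limma adjusted p = 0.033). Pdhb, the beta subunit of the decarboxylase, had 102 and 115 CPM in placebo ACLT, against 160 and 167 CPM in placebo control, and fell by 0.59 (SE 0.16, limma adjusted p = 0.0386). Pdhb was also 1 of the 4 genes with both anti-GDF8 ACLT pools, at 114 and 145.80 CPM, below both anti-GDF8 control pools, at 145.84 and 164 CPM, though the nearest pools were almost level. Dlat had 45.3 and 82.2 CPM in anti-GDF8 ACLT, against 67.1 and 72.1 CPM in anti-GDF8 control, with the ACLT pools on either side of the control pools.

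Pdha1, the X-linked alpha subunit that the kinases phosphorylate, had 114 and 134 CPM in placebo ACLT, against 217 and 260 CPM in placebo control. The pools did not overlap, but the log2 fold change of -0.94 (SE 0.33) had an adjusted p of 0.0911 by limma. Pdha1 reached 106 and 241 CPM in anti-GDF8 ACLT, against 167 and 223 CPM in anti-GDF8 control, again with pool A lowest and pool B highest. Pdhx, which binds Dld to the core, was at -0.60 in placebo limbs (adjusted p = 0.0802).

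The largest falls were among the regulators of the complex. Pdk4, the pyruvate dehydrogenase kinase known to rise in muscle with fasting and exercise (chromosome 6, 5483351 to 5496310, minus strand, in the table's GRCm39 coordinates), had 18.1 and 22.8 CPM in placebo ACLT, against 251 and 624 CPM in placebo control. It was 19.4-fold lower in the injured limbs (log2 fold change -4.28, SE 0.63, limma adjusted p = 0.00398). In the anti-GDF8 limbs Pdk4 had 34.9 and 148 CPM in ACLT, against 119 and 193 CPM in control. All 4 anti-GDF8 pools lay between the 2 placebo groups.

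Pdk2, a kinase expressed in most tissues, had 24.4 and 31.3 CPM in placebo ACLT, against 118 and 302 CPM in placebo control, and was 6.82-fold lower (log2 fold change -2.77, SE 0.70, limma adjusted p = 0.0316). It had 31.3 and 173 CPM in anti-GDF8 ACLT, against 98.3 and 152 CPM in anti-GDF8 control, a 5.52-fold gap between pools of 1 group. Pdpr, the regulatory subunit of pyruvate dehydrogenase phosphatase, had 6.18 and 11.3 CPM in placebo ACLT, against 19.5 and 20.9 CPM in placebo control, and fell by 1.26 (SE 0.32, adjusted p = 0.0303). The kinase genes Pdk4 and Pdk2 and a part of the phosphatase were thus among the genes that fell.

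The other regulators had smaller differences. Pdk3, the X-linked kinase, had 47.9 and 48 CPM in placebo ACLT, against 52.2 and 43.1 CPM in placebo control, a log2 fold change of 0.02 (95% interval -0.31 to 0.35). Pdk1 was at -0.45 (adjusted p = 0.291), and the phosphatase subunits Pdp1 and Pdp2 at 0.02 (95% interval -0.87 to 0.91) and -0.47 (95% interval -1.15 to 0.21). Pdp2 was the lowest of the 34 genes, at 4.07 to 6.66 CPM. Under the rescale by trimmed mean or quantile normalization, 32 of the 34 genes had a negative value, so the signs of values this near 0 depend on the scaling.

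**Figure D2:**
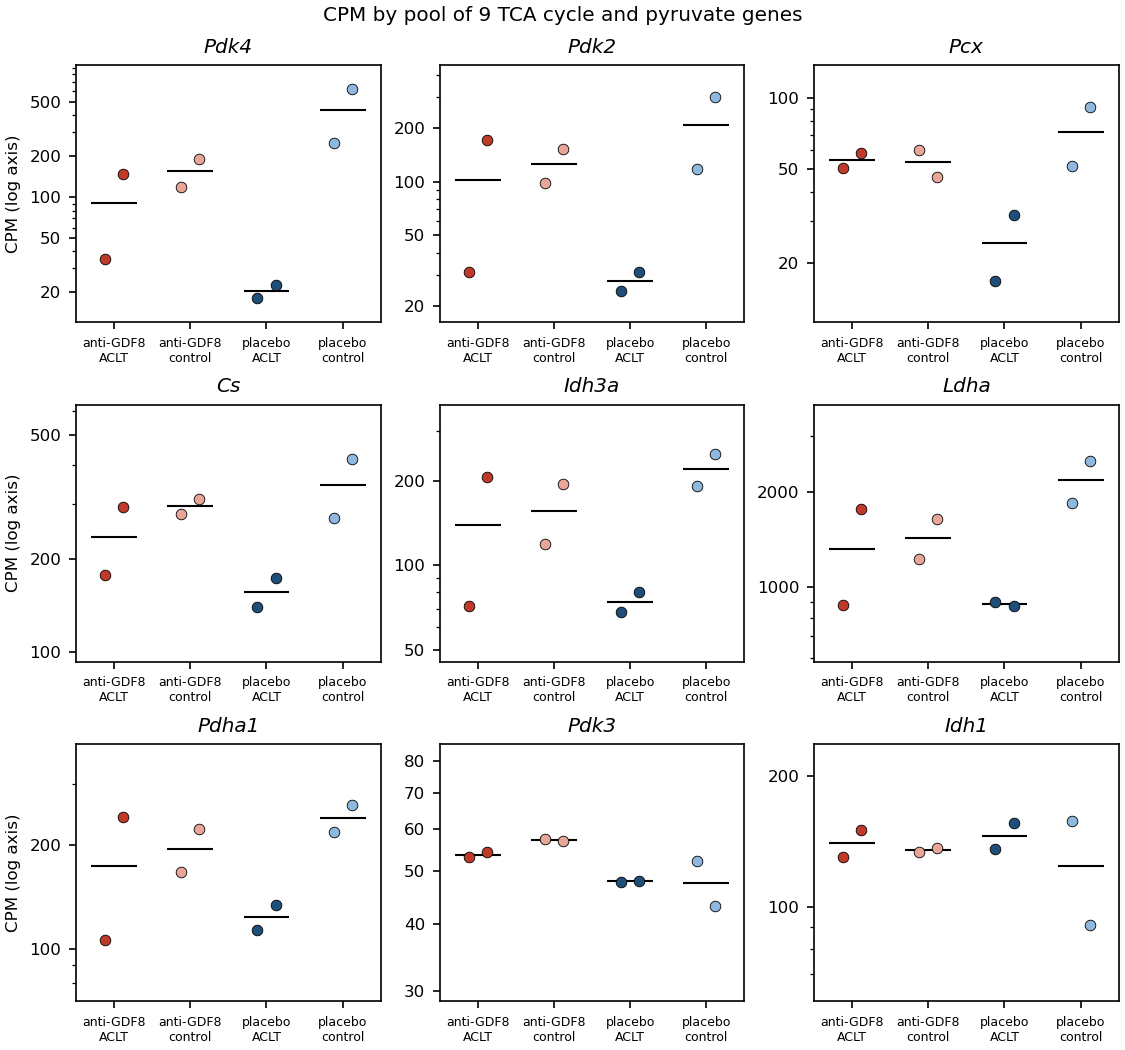
CPM on log axes of 9 genes in the 8 pools (points, pool A left of pool B) with the mean of each group (lines), in anti-GDF8 ACLT, anti-GDF8 control, placebo ACLT and placebo control. Pdk4 had 18.1 and 22.8 CPM in placebo ACLT, below the other 6 pools, while Pdk3 stayed between 43.1 and 57.4 CPM in all 8.

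The make-up of the kinase family was compared as shares of the summed CPM per kilobase of exon (exon lengths from GENCODE M21), which sets genes of different length on 1 scale. Pdk4 made up 22.1% and 34.2% of the family in anti-GDF8 ACLT pools A and B, 36.3% and 42.0% in anti-GDF8 control, 14.9% and 15.9% in placebo ACLT pools, and 52.8% and 60.2% in placebo control. Pdk3 held 46.0% and 17.2% in anti-GDF8 ACLT, 24% and 17.0% in anti-GDF8 control, 53.9% and 45.9% in placebo ACLT pools, and 15.0% and 5.70% in placebo control. Pdk3 was thus the leading kinase gene of the family in both placebo ACLT pools and in anti-GDF8 ACLT pool A, and Pdk4 or Pdk2 in the other 5.

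**Figure D3:**
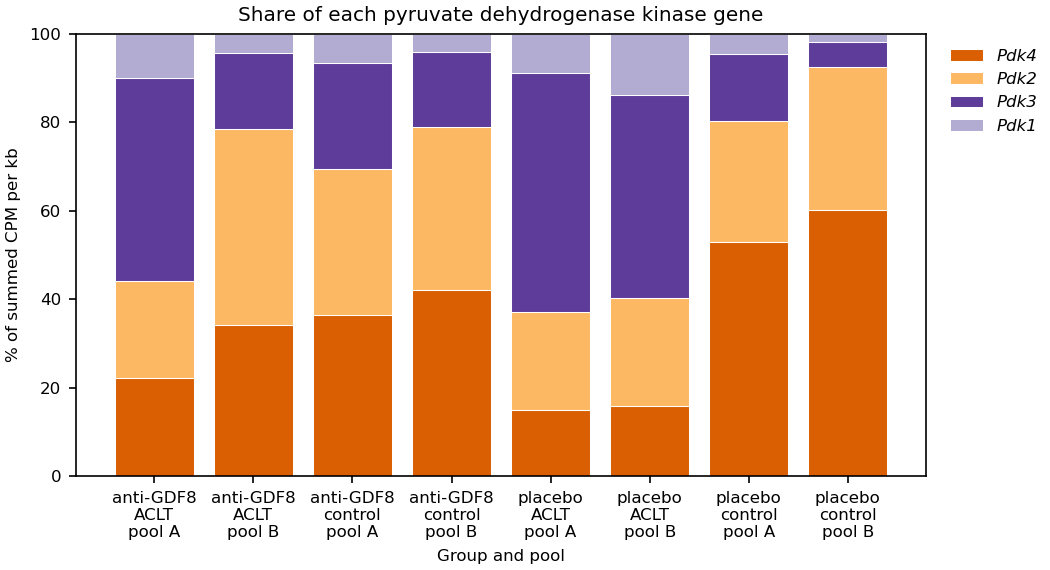
Stacked bars of the percentage of summed CPM per kilobase that Pdk4, Pdk2, Pdk3 and Pdk1 took up in each of the 8 pools. Pdk2 and Pdk4 together ranged from 37.1% in placebo ACLT pool A to 92.5% in placebo control pool B.

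Enzymes and carriers that move pyruvate elsewhere gave 3 falls among 7 genes. Pcx, pyruvate carboxylase, which refills the cycle with oxaloacetate, had 16.9 and 31.9 CPM in placebo ACLT, against 51.4 and 91.7 CPM in placebo control. It fell by 1.57 (SE 0.34, limma adjusted p = 0.0176). In the anti-GDF8 limbs Pcx had 50.6 and 58.7 CPM in ACLT, against 60.4 and 46.4 CPM in control. Pcx differed 1.16-fold between the anti-GDF8 ACLT pools, whose muscle marker shares differed 15.0-fold. Ratios as small were those of Me2 (1.00), Pdk3 (1.02), Pdp2 (1.06), Idh1 (1.15) and Aco1 (1.16), while Pdk4 (4.24) and Idh3a (2.88) had larger ones. In placebo control, Pcx was 1.78-fold higher in pool B than in pool A, and muscle markers were 2.32-fold higher in pool B. In placebo ACLT, Pcx was 1.89-fold higher in pool B, which had the fewer muscle markers. Pcx shares its locus with Lrfn4 on the opposite strand (4.52 CPM on average), and reads of overlapping genes may be mixed because the strand setting of the counting is not given in the sources used here.

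Ldha, the lactate dehydrogenase subunit that favors lactate production, was the most abundant of the 34 genes per kilobase. It had 899 and 874 CPM in placebo ACLT, against 1848 and 2508 CPM in placebo control, and fell by 1.28 (SE 0.33, limma adjusted p = 0.0319). Anti-GDF8 ACLT pools held 880 and 1765 CPM of Ldha, against 1225 and 1642 CPM in anti-GDF8 control. Pool A was again level with the placebo ACLT pools and pool B with the control pools.

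Ldhb, the subunit of oxidative tissues such as heart, had 33.3 and 29.6 CPM in placebo ACLT, against 59 and 75.5 CPM in placebo control, with a log2 fold change of -1.09 (SE 0.36, limma adjusted p = 0.0779). The anti-GDF8 ACLT pools had 28 and 65 CPM of Ldhb, against 47.1 and 72.8 CPM in anti-GDF8 control. Per kilobase, Ldha made up 91.5% to 94.0% of the pair in all 8 pools. The share of Ldha thus stayed in a narrow range while its level differed between the placebo groups.

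Mpc1 and Mpc2 together form the mitochondrial pyruvate carrier. Mpc2 had 69.1 and 63.7 CPM in placebo ACLT, against 96.2 and 105 CPM in placebo control, and fell by 0.60 (SE 0.17, limma adjusted p = 0.0429). For Mpc1 the levels were 121 and 125 CPM in placebo ACLT, against 188 and 177 CPM in placebo control, with a log2 fold change of -0.57 (SE 0.24, adjusted p = 0.143). The carrier genes thus had nearly the same fold change, and a difference in call between them is no evidence that they differ. In anti-GDF8 limbs Mpc1 had 105 and 186 CPM in ACLT, against 130 and 155 CPM in control, and Mpc2 had 66.3 and 88.6 CPM in ACLT, against 79.5 and 85.5 CPM in control.

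Me1, the cytosolic malic enzyme, which makes pyruvate and NADPH from malate, had 25.3 and 24.5 CPM in placebo ACLT, against 59.4 and 110 CPM in placebo control. Its log2 fold change of -1.70 (SE 0.51) was the third most negative of the 34 but had an adjusted p of 0.0536 by limma. Me1 had 15.6 and 53.1 CPM in anti-GDF8 ACLT, against 33.3 and 46.3 CPM in anti-GDF8 control. Me2, the mitochondrial malic enzyme, was at -0.10 in placebo limbs (95% interval -0.44 to 0.23).

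Muscle fiber markers moved with the injury contrast in placebo limbs, where 20 of the 24 fell with a median log2 fold change of -6.32, and the summed levels of the 34 genes were lowest where these markers were low. Macrophage markers rose for 7 of 8 (median log2 fold change 1.41) and fibroblast markers for 5 of 8 (median 2.22) in the same comparison, and their part in the result was not tested. Over all genes in that comparison, 4.03% fell and 11.6% rose. The 34 genes summed to 3626 and 6334 CPM in anti-GDF8 ACLT pools A and B, 4987 and 6123 CPM in anti-GDF8 control, 3501 and 3682 CPM in placebo ACLT pools, and 6209 and 8258 CPM in placebo control. The 3 pools with under 0.3% muscle markers had the 3 lowest sums, and the pool with the most muscle markers had the highest. With the mean of the muscle markers as a covariate in the fit, 0 of the 34 genes passed the test in placebo limbs and 26 of 34 had a positive value. The median of the 34 was 0.22, beside 0.11 over all genes in that fit. Calls over all genes in that fit are not given here, so the loss of calls is not a result about the 34 genes alone. The fold change on the log2 scale was then -0.998 for Pdk4 (adjusted p = 0.487), -1.28 for Pcx (adjusted p = 0.49), -0.59 for Pdpr (adjusted p = 0.765) and -0.12 for Pdhb (adjusted p = 0.917), all still negative, while Cs, Idh3a, Pdk2 and Ldha turned positive. The covariate separates the placebo groups almost as the injury does, so in placebo limbs the muscle RNA and the injury cannot be told apart.

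**Figure D4:**
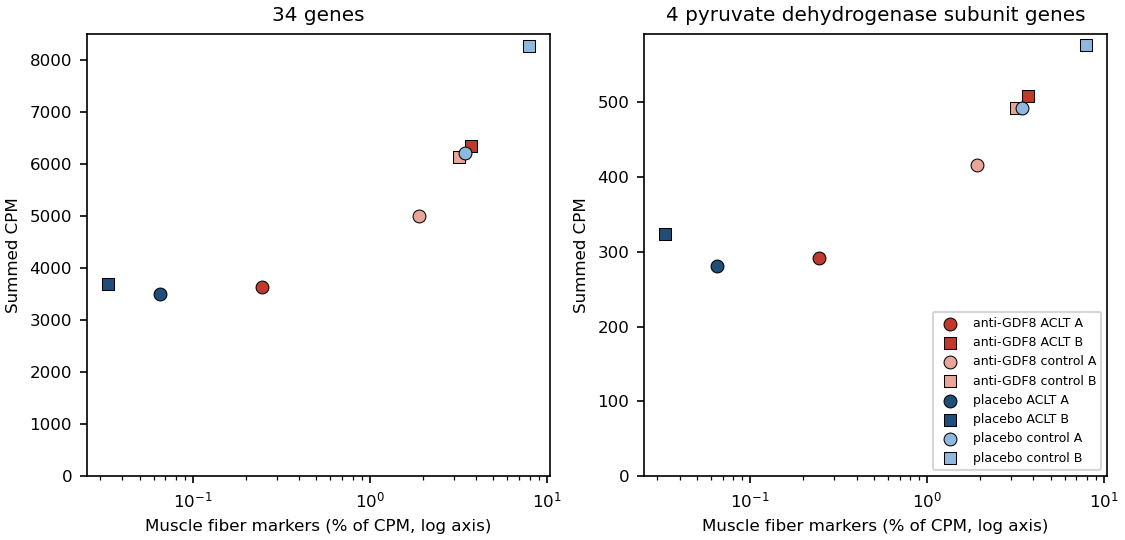
Summed CPM of the 34 genes (left) and of the 4 pyruvate dehydrogenase subunit genes (right) against the share of CPM in 24 muscle fiber markers (log axis) in the 8 pools, circles for pool A and squares for pool B. Sums of the 34 genes were 3501 to 3682 CPM in the 3 pools with under 0.3% muscle markers and 4987 to 8258 CPM in the other 5.

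Differences between pools of the same group, which injury and treatment do not enter, ran with the muscle markers for most of the 34 genes in 3 of the 4 groups and against them in placebo ACLT. In anti-GDF8 ACLT, pool B had more muscle markers than pool A and the higher value for 34 of the 34 genes, over 2-fold for 9, with a median log2 difference of 0.67, while 47.7% of all genes were higher and 7.35% over 2-fold. Ratios of pool B to pool A ran from 1.00 for Me2 to 5.52 for Pdk2, with 4.24 for Pdk4, 3.42 for Me1 and 2.88 for Idh3a. In anti-GDF8 control, where pool B had 1.67-fold more muscle markers, 30 of the 34 were higher in pool B (median log2 difference 0.22), against 55.2% of all genes. In placebo control, pool B had 2.32-fold more and 24 of the 34 were higher in it (median 0.19), against 33.1% of all genes, among them Pdk2 at 2.56-fold and Pdk4 at 2.48-fold. The placebo ACLT pools, both poor in muscle markers, had 10 of the 34 higher in pool A, which had 1.97-fold more of them, against 46.4% of all genes (median -0.08).

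**Figure D5:**
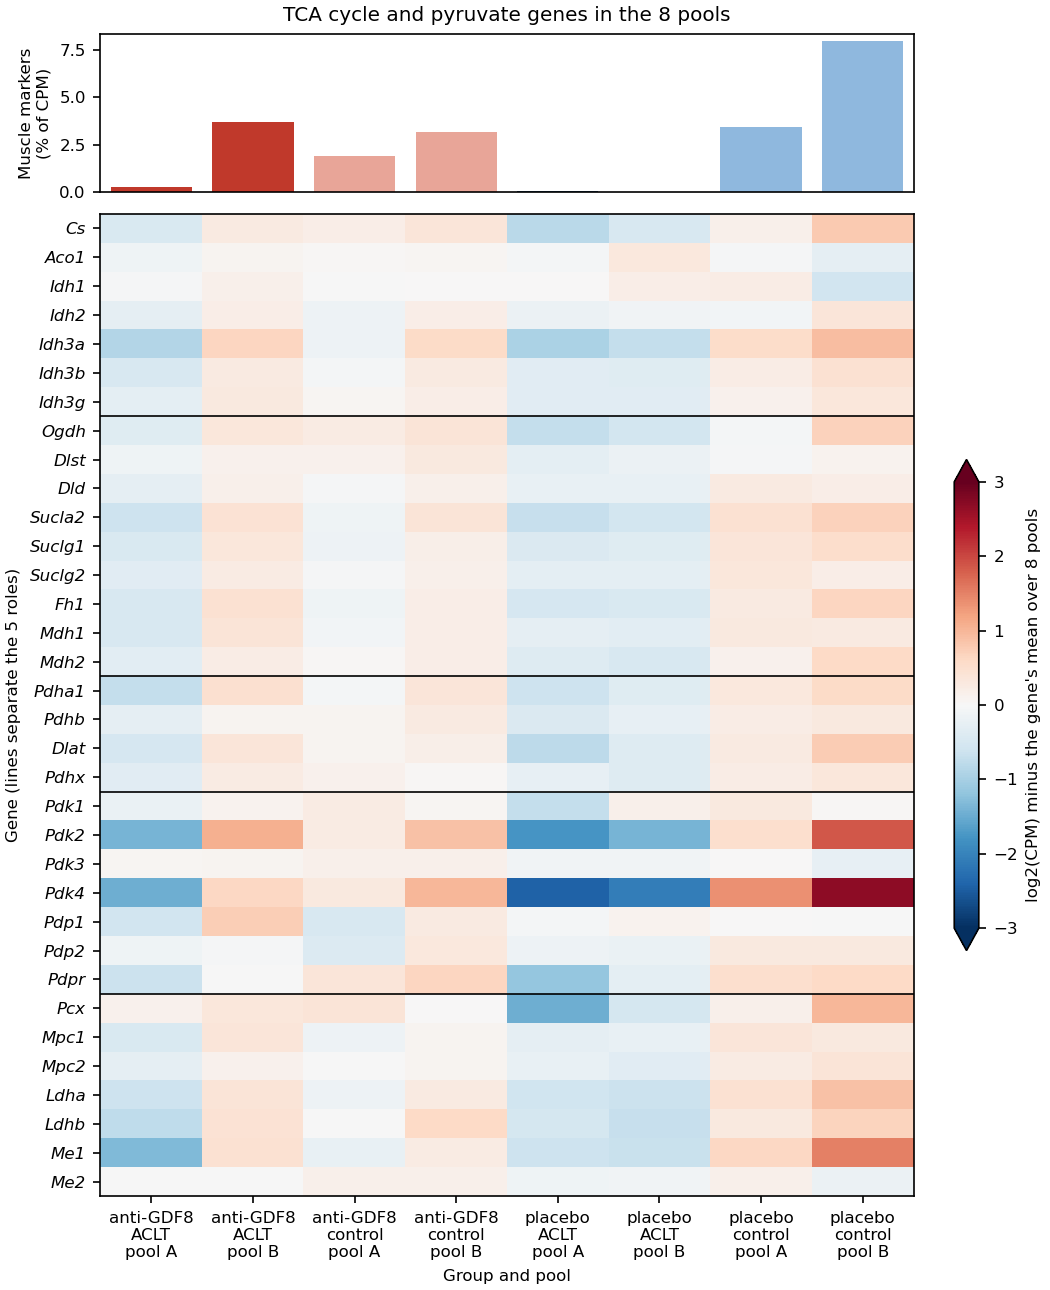
Heat map of log2 CPM of the 34 genes in 8 pools, each gene relative to its own mean over the pools, with lines between the 5 roles, under bars of the percentage of CPM in muscle fiber markers. Columns for anti-GDF8 ACLT pool A and the placebo ACLT pools are mostly below 0, where muscle markers are 0.247%, 0.0652% and 0.033% of CPM.

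Injury in anti-GDF8-treated mice moved none of the 34 genes past the threshold (limma, 0 of 34), and over all genes 0.609% passed, 104 of them rising and 2 falling. The median log2 fold change of the 34 was -0.17, beside -0.04 over all genes, with 31 of 34 negative. At an unadjusted p under 0.05 there was 1 gene, Pdpr, beside 3.52% of all genes that were lower at that level. Pdpr had 8.9 and 13.7 CPM in anti-GDF8 ACLT, against 17.8 and 21.6 CPM in anti-GDF8 control, a log2 fold change of -0.82 (SE 0.32, adjusted p = 0.43). Both ACLT pools were below both control pools for 4 of the 34 genes (Pdhb, Pdk3, Pdpr and Me2), against 23.8% of all genes. In this comparison the median log2 fold change was -1.33 for muscle markers and -1.39 for the 11 cartilage markers tested. It was 1.68 for fibroblast markers and 0.72 for macrophage markers, and the part of these markers in the result was not tested.

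The range of effects that these pools allow under anti-GDF8 is wide for the genes with the largest placebo falls. Pdk4 was at -1.07 (95% interval -2.50 to 0.36) and Pdk2 at -0.74 (-2.34 to 0.87). Pcx was at 0.04 (95% interval -0.73 to 0.82) and Cs at -0.37 (-0.996 to 0.25). The 2 anti-GDF8 ACLT pools gave different results when taken alone. Without pool B of that group the log2 fold change of Pdk4 was -2.11. The median of the 34 was then -0.45, beside -0.02 over all genes. Without pool A the median of the 34 was 0.15, beside -0.02 over all genes. In these fits the lone pool is assumed to vary like the other groups.

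Anti-GDF8 ACLT limbs were next set against placebo ACLT limbs. Of the 34 genes 0 passed the threshold, as did 0% of all genes (limma). The log2 fold change was positive for 32 of the 34, with a median of 0.26, beside -0.11 over all genes. Both anti-GDF8 pools lay above both placebo pools for 10 of the 34, against 16.3% of all genes. These 10 were Cs, Idh3g, Ogdh, Dlst, Mdh2, Pdk3, Pdk4, Pdp2, Pcx and Me2. At an unadjusted p under 0.05 there were 2, Pcx and Pdk4, both higher, beside 5.6% of all genes.

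Pcx had 50.6 and 58.7 CPM in anti-GDF8 ACLT, against 16.9 and 31.9 CPM in placebo ACLT, a log2 fold change of 1.23 (SE 0.34, limma adjusted p = 0.153). Pdk4 had 34.9 and 148 CPM, against 18.1 and 22.8 CPM, a log2 fold change of 1.82 (SE 0.63, adjusted p = 0.204). In the same comparison the median log2 fold change was 3.99 for muscle markers, -1.16 for the 11 cartilage markers tested, -1.23 for the 8 fibroblast markers and -0.53 for the 8 macrophage markers, with 0 genes past the threshold, and their part in the result was not tested. Without anti-GDF8 ACLT pool A, 3 genes rose, Pdk4 by 2.86 (adjusted p = 0.0094), Pdk2 by 2.64 (adjusted p = 0.0159) and Idh3a by 1.48 (adjusted p = 0.0287), beside 1.99% of all genes that rose in that fit. With the muscle covariate the median of the 34 was -0.19, beside -0.08 over all genes. Without pool B the median of the 34 was -0.0027, beside -0.12 over all genes.

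In control limbs, anti-GDF8 against placebo gave 0 of 34 genes past the threshold and 0% of all genes (limma). The median of the 34 was -0.22, beside 0.09 over all genes, and 29 of the 34 were negative. No member had an unadjusted p under 0.05 (0 of 34), beside 1.58% of all genes that were lower at that level. Both anti-GDF8 control pools lay below both placebo control pools for 13 of the 34, against 11% of all genes. Both lay above for 3 of the 34 (Aco1, Dlst and Pdk3), against 4156 of the 17401 genes tested. The 13 were Dld, Sucla2, Suclg1, Suclg2, Fh1, Mdh1, Dlat, Pdhx, Pdk4, Mpc1, Mpc2, Ldha and Me1. Pdk4 had the most negative value, -1.39 (95% interval -2.81 to 0.04), at 119 and 193 CPM in anti-GDF8 control, against 251 and 624 CPM in placebo control. Muscle markers were 1.91% and 3.19% of the CPM in those anti-GDF8 pools, against 3.43% and 7.96% in placebo, and their part in the result was not tested.

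Whether the injury effect differed between the antibodies was tested as an interaction, the anti-GDF8 injury effect minus the placebo injury effect. Of the 34 genes 0 passed, as did 0% of all genes (limma). The value was positive for 30 of the 34, with a median of 0.50 beside -0.21 over all genes. At an unadjusted p under 0.05 there were 3, all positive, beside 2.67% of all genes positive at that level. They were Pdk4 at 3.21 (95% interval 1.19 to 5.23, adjusted p = 0.449), Pcx at 1.61 (0.51 to 2.7, adjusted p = 0.449) and Ldha at 1.09 (0.04 to 2.14, adjusted p = 0.478). Calls in placebo limbs and none in anti-GDF8 limbs therefore do not amount to a tested difference between the antibodies. Without anti-GDF8 ACLT pool A, 5 genes passed in the interaction, namely Pdk4, Pdk2, Idh3a, Me1 and Sucla2, all positive, beside 1.67% of all genes that passed with a positive value in that fit. With the muscle covariate the median of the 34 was -0.11, beside -0.14 over all genes.

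Other genes of the same pathways, 33 in number and outside the 34, gave a like count. In placebo limbs 9 of the 33 fell and 0 rose after injury, beside 4.03% and 11.6% of all genes. The 33 had a median of -0.67, beside 0.17 over all genes, and 0 of the 33 passed in the other comparisons. Slc16a3, the transporter that exports lactate, had 69.7 and 63.4 CPM in placebo ACLT, against 130 and 218 CPM in placebo control (log2 fold change -1.34, SE 0.25, limma adjusted p = 0.0105). Gpt2, the mitochondrial alanine transaminase, had 12 and 8.55 CPM in placebo ACLT, against 57 and 112 CPM in placebo control (-2.98, SE 0.60, adjusted p = 0.0136). Acss1, which makes acetyl-CoA from acetate in mitochondria, and Sdha, the flavoprotein of succinate dehydrogenase, had log2 fold changes of -0.94 (SE 0.22, adjusted p = 0.0231) and -0.94 (SE 0.24, adjusted p = 0.0335). Acss1 had 41.2 and 64.7 CPM in placebo ACLT, against 96.9 and 102 CPM in placebo control, and Sdha 239 and 272 CPM, against 434 and 552 CPM. All 4 had both injured pools below both control pools.

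Single libraries were left out in turn to see how the count of 12 in placebo limbs depended on them. All 12 kept a negative value without each of the 8 libraries. Pdk4 had log2 fold changes from -4.93 to -3.62 in these fits, each of which leaves a lone pool in 1 group. The count became smaller when any placebo or anti-GDF8 control pool was left out, and larger when either anti-GDF8 ACLT pool was. Pools outside the comparison matter because the spread is shared by all groups. The number of falls over all genes moved the same way. Without placebo ACLT pool A the median of the 34 was -0.68, beside 0.17 over all genes, and without pool B -0.72, beside 0.15. Without placebo control pool A it was -0.74, beside 0.27, and without pool B -0.59, beside 0.06.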

How the data were processed

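Groups follow the sample labels and pools the letters in the sample descriptions. The deposited table gives CPM for 20539 genes, made by the authors, and each of its 8 columns sums to 1e+06. Tools listed in the submitters' processing notes are DESeq2, Partek and STAR 2.7.3a, beside builds mm39 and mm10. Which step used which is not given in the sources used here. Gene coordinates of the table are GRCm39, so the GRCm38 reference served only for exon lengths (by gene identifier) and promoters (by symbol). The 34 genes and all other gene lists were chosen with earlier results of these data known.

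CPM was multiplied by the median depth of 20.1 M (1e+06) reads, 1 read (0.0498 CPM) was added and log2 taken, so fold changes of low genes are understated. Genes averaging under 10 reads (0.498 CPM) were left out. All 8 libraries entered 1 model with a mean for each of the 4 groups in limma 3.58.1 (R 4.3.3, trended prior, 4 residual and 4.74 prior degrees of freedom), with Benjamini-Hochberg adjustment over 17401 genes and a threshold of 0.05. Of values under 200 reads, 69.7% to 75.4% were whole within 0.02 of a read, so no test on counts was run. The fit was tested on simulated data. Tables and figures used matplotlib 3.10.9, pandas 2.3.3, numpy 2.4.6 and Python 3.11.15. Values in every pool are given for each gene that passed a test and for Cs, Idh3a, Pdha1, Pdk4, Pcx, Mpc1, Ldha, Ldhb and Me1, and for a few others chosen after their values were seen. Of the 33 other pathway genes, the 4 with the smallest adjusted p were named. Alternatives were other pseudocounts, filters, scalings and spread estimates, only the libraries compared, replicate blocks, a muscle covariate and each library left out.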

Additional observations from a re-analysis of the deposited data

How the results depend on the processing

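The count of 12 genes that fell after injury in placebo limbs became 22 with the trimmed mean rescale, 1 (Pdk4) with no intensity trend, 0 with muscle markers as a covariate and 1 to 23 without 1 library at a time. The pool letters are not stated to pair mice, in anti-GDF8 control their order is the reverse of the title numbering, and the A to B differences of ACLT and control pools correlated at 0.30 under anti-GDF8 and 0.04 under placebo over all genes, so no pairing was used. A replicate block by letter gave 19 genes, by letter within treatment 20 and by title number 10. Shares of all genes called with these blocks, with no intensity trend and with the covariate are not given here. The counts are therefore not a result about the 34 genes alone. Leaving out 1 library gave 0 to 1 gene for injury under anti-GDF8, 0 to 3 for anti-GDF8 against placebo in ACLT limbs and 0 to 5 for the interaction, and 0 in control limbs. With the covariate the median log2 fold change of the 34 became 0.22 for injury under placebo, beside 0.11 over all genes. It was -0.19 beside -0.08 for treatment in ACLT limbs, and -0.11 beside -0.14 for the interaction. For injury under anti-GDF8 it was 0.095 beside -0.044, and for treatment in control limbs -0.097 beside 0.079. Leaving out 1 library moved the median of the 34 between -0.45 and 0.15 for injury under anti-GDF8. The median over all genes was -0.02 at both ends. For treatment in ACLT limbs the 34 moved between -0.0027 and 0.66, beside -0.12 and -0.11 over all genes. For the interaction they moved between 0.16 and 0.89, beside -0.20 and -0.22. The covariate turned the placebo injury value positive for 12 named genes, Cs (0.038), Pdk2 (0.97), Ldha (0.29), Dlat (0.10), Sucla2 (0.31), Mdh2 (0.14), Mpc2 (0.034), Idh3a (0.64), Pdha1 (0.69), Mpc1 (0.47), Ldhb (0.80) and Me1 (1.03), and the cause was not tested. Of the 21 alternatives for the count of 12, 12 moved it by more than 1.5 times. With 2 pools per group, precision is limited by the pools and not by depth, since the lowest gene, Pdp2, had 81.9 reads in its lowest pool at the median depth.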
